A study of Caenorhabditis elegans with 2 samples.

Results

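RNA polymerase II, the TATA-binding protein complex TFIID and the Mediator complex form the core apparatus that transcribes protein-coding genes. The genes examined here were the protein-coding genes of the Ensembl WBcel235 annotation with symbols beginning rpb-, taf- or mdt- and a digit, 48 of 19973 in all. They comprised 11 rpb genes for polymerase subunits, 17 taf genes for the TBP-associated factors of TFIID, and 20 mdt genes for Mediator subunits. The rule for membership uses the symbol alone and no measured value, although it was set with earlier results of these data known. The data were chromatin immunoprecipitation sequencing (ChIP-seq) of whole Caenorhabditis elegans at the larval stage labelled L4, mixed in sex, in 2 biological replicates of 1 group. All animals were of strain OP337, whose labelled genotype is unc119(ed3) with the integrated array wgIs377, carrying fkh-10::TY1 EGFP FLAG and unc119. The labels do not give the promoter or the cells in which the tagged forkhead factor FKH-10 was made. Both libraries belong to the same group, so no conditions could be compared. Nothing beyond the word biological in the labels says how the replicates were separated.

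Polymerase II is a multisubunit enzyme built around a large catalytic core, and some of its small subunits are shared with polymerases I and III. TFIID recognises core promoters through TBP and its associated factors, several of which pair through histone folds. Mediator relays signals from DNA-bound factors to the polymerase and is divided into head, middle, tail and kinase modules. A signal from whole animals cannot be assigned to a tissue.

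The authors deposited 4 lists of bound regions on the genome build ce11. The IDR list held 2253 regions past the authors' threshold on the irreproducible discovery rate over both replicates. The relaxed lists include background, with 19381 regions called on both replicates pooled. Replicate 1 alone gave 30000 and replicate 2 alone 28886. Each region carries a summit and the authors' signal, an enrichment relative to a control library whose scale is not given in the sources used here. Ranks count from 1 for the strongest region of a list. A region was assigned to a gene when its summit lay in the gene window, which ran from 1000 bp upstream of the annotated 5′ end of the gene to the gene end. The narrower promoter window ended 200 bp downstream of a transcript start. Read depth is unknown, so the precision of a single signal could not be stated. The gene window of fkh-10 itself held 0 regions in each of the 4 lists, and that of unc-119 held 1 IDR and 7 pooled regions, and no region at fkh-10 was available as a check of the label.

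Sequences at 6 of the promoter regions are given first, because they show what lay under the signal. Up to 3 regions of each class were taken in order of IDR signal, leaving out taf-4, mdt-18 and mdt-19, so that neither the strongest region, at mdt-19, nor the strongest of the taf genes, at taf-4, is printed here. Up to 200 bases around the summit are printed in the direction of the gene. Annotated UTRs of any gene were cut away and the longest remaining stretch was kept. At rpb-11 and mdt-26 this left out the bases from the gene's own start onward. At taf-6.2 it left out bases at the upstream end, from the start of the neighbour Y37E11AL.3. The sequences were read from the RefSeq WBcel235 genome, which is ce11. Capitals mark matches, on either strand, to the motifs GAGAGAG, the forkhead forms ATAAACA and ATAAATA (each also with G in place of the first A), the TATA form TATAAA, the splice acceptor form TTTCAG, the SP1-type CCCGCCC and the GATA form TGATAA. The rpb-11 window is chrII:14059898-14060084 (plus strand), taf-12 chrIII:11870065-11870264 (minus), taf-8 chrII:9669116-9669315 (plus), taf-6.2 chrIV:3694781-3694934 (minus), mdt-26 chrII:5661044-5661180 (plus) and mdt-8 chrII:11534650-11534849 (minus).
rpb-11: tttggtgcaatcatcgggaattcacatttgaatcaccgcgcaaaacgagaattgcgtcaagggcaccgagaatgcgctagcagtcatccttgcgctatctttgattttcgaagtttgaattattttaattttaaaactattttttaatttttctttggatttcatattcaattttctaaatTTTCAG
taf-12: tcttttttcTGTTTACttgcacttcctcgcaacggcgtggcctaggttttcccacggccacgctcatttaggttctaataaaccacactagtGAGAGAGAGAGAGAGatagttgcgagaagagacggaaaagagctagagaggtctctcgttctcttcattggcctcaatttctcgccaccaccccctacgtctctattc
taf-8: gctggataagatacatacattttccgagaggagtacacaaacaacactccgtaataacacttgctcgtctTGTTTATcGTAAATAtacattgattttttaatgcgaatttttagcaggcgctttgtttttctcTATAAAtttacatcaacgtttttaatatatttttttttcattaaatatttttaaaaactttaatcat
taf-6.2: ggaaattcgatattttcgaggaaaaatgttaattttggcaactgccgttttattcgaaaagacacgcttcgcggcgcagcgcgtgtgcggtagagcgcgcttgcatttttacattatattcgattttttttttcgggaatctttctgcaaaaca
mdt-26: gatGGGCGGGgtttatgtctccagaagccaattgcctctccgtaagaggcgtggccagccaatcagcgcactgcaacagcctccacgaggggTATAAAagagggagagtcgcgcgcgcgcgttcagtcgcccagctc
mdt-8: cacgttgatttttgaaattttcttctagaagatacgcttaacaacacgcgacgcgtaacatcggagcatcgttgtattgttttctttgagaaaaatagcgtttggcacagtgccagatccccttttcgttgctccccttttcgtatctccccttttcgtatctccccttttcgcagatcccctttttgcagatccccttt

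These windows differed widely in composition. GC content ran from 27.0% at taf-8 to 61.3% at mdt-26. The taf-12 window held a run of overlapping GAGAGAG matches, from 891 to 877 bp upstream of the gene's 5′ end, and a GTAAACA on the other strand. The taf-8 window held 2 forkhead forms side by side, ATAAACA on the other strand and GTAAATA, between 132 and 118 bp upstream. The mdt-26 window held a TATAAA from 45 to 40 bp upstream, and the rpb-11 window ended in a TTTCAG directly before the annotated start. The taf-6.2 and mdt-8 windows held none of the motifs. The mdt-8 window held 5 copies of CCCCTTTT, a repeat that was chosen after the sequence was seen. At least 3 copies lay within 100 bp of 0.178% of all IDR summits and of 0.07% of pooled summits with no IDR summit within 100 bp. A match describes the letters in a window and does not identify a binding site.

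Among all 13 IDR summits at these genes, GAGAGAG lay within 100 bp of 2 (15.4%), against 20.1% of all 2253 IDR summits and 5.57% of the pooled summits without an IDR summit. Any of the 4 forkhead forms lay at 3 (23.1%), namely taf-12, taf-8 and mdt-22, against 14.0% of all IDR summits and 3254 of the 17154 pooled ones. TATAAA lay at 3 (23.1%), at taf-4, taf-8 and mdt-26, against 10.8% and 21.1%. TTTCAG was at 2 (15.4%), against 16.0% and 32.5%, and TGATAA at 0, against 7.19% and 14.9%. CCCGCCC was at 1 (7.69%), against 2.35% and 1.29%. With 13 regions these shares move by 7.69 percentage points for each region, and no direction was read from them. The median GC content of the 13 windows was 42.3%, and that of all IDR windows 42.8%.

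IDR regions lay at 12 of the 48 genes. This share of 25.0% (95% Wilson interval 14.9 to 38.8, counting error only) stands beside 8.56% of all protein-coding genes. In the promoter window alone, 11 genes had one, or 22.9% (interval 13.3 to 36.5), against 6.98% of all protein-coding genes. The intervals treat the genes as separate draws. No test of the difference was made, since the membership rule was set with earlier results of these data known. The median gene window was 2787 bp for the members and 3027 bp for all genes. Counted per length, the members' windows held 5.76 IDR regions per 100 kb, against 2.35 over all protein-coding windows. The signals themselves were ordinary for the list. The 13 regions had a median IDR signal of 60.5, from 42.3 to 109, against a median of 59.2 over all IDR regions, and 1 of the 13 was among the 225 strongest.

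**Figure D1:**
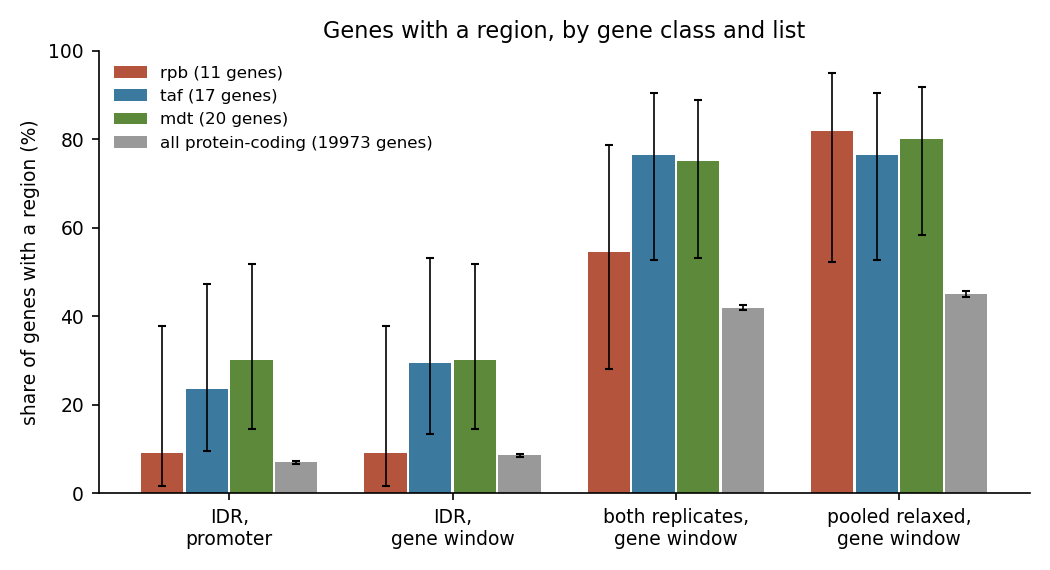
Share of genes (vertical axis, %) with a region, for rpb, taf, mdt and all protein-coding genes; bars give the share in each list and window, and lines the 95% Wilson interval. In the IDR list, taf and mdt stood at 29.4% and 30.0% and rpb at 9.09%, against 8.56% of all genes in the gene window.

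By class, Mediator genes had IDR regions at 6 of 20 (30.0%, interval 14.5 to 51.9) and TFIID genes at 5 of 17 (29.4%, interval 13.3 to 53.1). Polymerase genes had 1 of 11 (9.09%, interval 1.62 to 37.7), close to the share of all genes. The intervals overlap and the difference between classes was not tested. The rpb windows were also the shortest, with a median of 1766 bp, against 3735 bp for taf and 3696 bp for mdt. A pooled region lay in the window of 9 of 11 rpb genes, 13 of 17 taf genes and 16 of 20 mdt genes, or 38 of 48 in all (79.2%, interval 65.7 to 88.3), against 45.0% of all protein-coding genes. A region of each replicate lay in the windows of 6 of 11 rpb genes (54.5%), 13 of 17 taf genes (76.5%) and 15 of 20 mdt genes (75.0%), or 34 of 48 in all (70.8%), against 41.9% of all protein-coding genes.

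Most of the promoter regions could not be assigned to a single gene. Of the 11 members with an IDR region at the promoter, 9 (81.8%) shared it with the promoter window of another gene, against 47.2% of the 1395 protein-coding genes with such a region. At 5 of the 13 regions the nearest transcript start belonged to another gene, as at mdt-19, mdt-22, mdt-6, mdt-8 and taf-6.2. With each region given only to the gene of its nearest start, 7 of 48 members (14.6%) kept one, against 6.59% of all genes. Close upstream neighbours were common among the 48 genes. The next protein-coding gene upstream lay within 1000 bp on the same strand for 21 of 48 (43.8%), against 27.8% of all genes, and on the other strand for 9 (18.8%), against 17.2%. For 11 (22.9%) no gene lay within 1000 bp, against 48.1%. Among genes with no such neighbour, 3 of 11 members (27.3%) had a promoter region in the IDR list, against 5.94% of all genes so placed. With a same-strand neighbour the members had 3 of 21 (14.3%), against 4.0%. With a neighbour on the other strand they had 3 of 9 (33.3%), against 15.3%. Where another gene overlapped the 5′ end they had 2 of 7 (28.6%), against 5.61%.

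Within polymerase II, rpb-11 was the one gene with an IDR region. RPB-11 pairs with RPB-3 in a dimer on which the enzyme is assembled. The region (chromosome II, 14059803 to 14060192) had its summit 87 bp upstream of the gene, which spans 14060085 to 14060624 on the plus strand (the window printed above). Its IDR signal was 92.3, rank 289, with 36.8 in replicate 1 (rank 469) and 40.4 in replicate 2 (rank 745). The replicates placed the summit 14 bp apart. The same region fell in the window of the next gene on that strand, W01G7.4, whose start lay 741 bp downstream of the summit. No pooled region other than this one lay at rpb-11.

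The other polymerase genes had weaker regions. rpb-3, for the partner of RPB-11, had a pooled region 86 bp upstream with a signal of 29.8 (rank 3502), which replicate 2 held at 23.8 and replicate 1 lacked. rpb-8, for a subunit shared by the 3 nuclear polymerases, had one 204 bp upstream with a pooled signal of 30.3, and 7.07 in replicate 1 against 20.9 in replicate 2. At rpb-7, for a subunit of the stalk, the pooled region 8 bp upstream had a signal of 28.4, with 9.99 and 16.8 in replicates 1 and 2. In these 3 genes replicate 2 held the larger or the only value. At rpb-4, for the other stalk subunit, the pooled signal was 22.5, with the summit 158 bp upstream, and at rpb-9 it was 22.01 in an intron. At neither did replicate 1 hold a summit within 100 bp. The pooled regions of rpb-3, rpb-7 and rpb-9 lay also in the promoter windows of pas-4, Y54E10BR.2 and lmtr-2, in that order. That of rpb-4 lay also in those of F43E2.1 and mtch-1, and that of rpb-8 in no other promoter window. The strongest pooled signals were 19.8 at rpb-5, 16.2 at rpb-2, the gene for the second-largest subunit, and 14.9 at rpb-10, beside a median of 17.3 over the whole pooled list. rpb-12 had a region in replicate 2 alone (signal 18.8), and rpb-6 had none in any list.

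**Figure D2:**
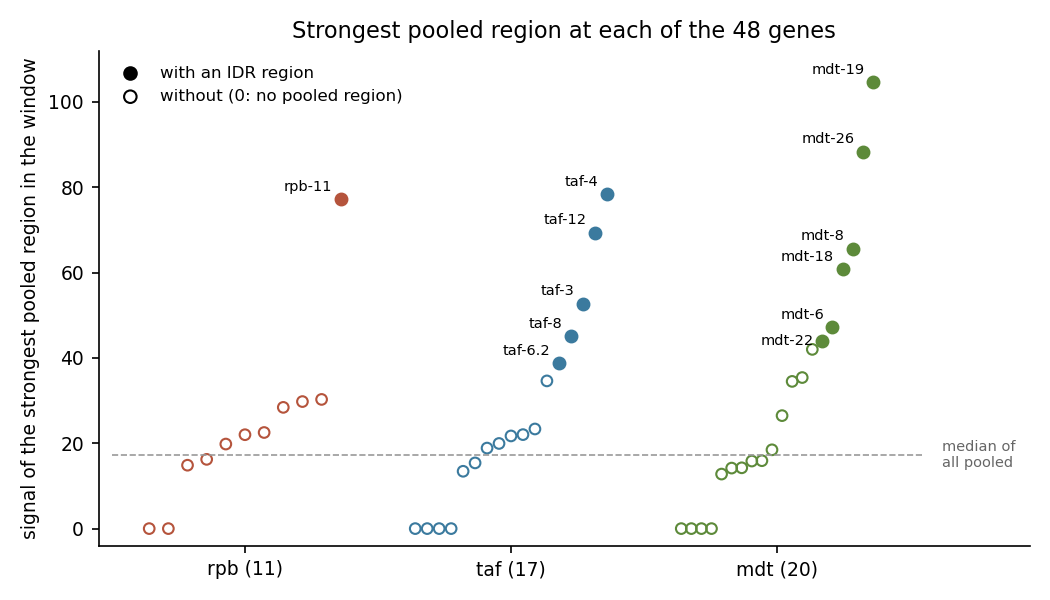
Signal of the strongest pooled region in the window of each of the 48 genes (vertical axis, the authors' signal), by class and in rising order; filled points have an IDR region, and points at 0 have no pooled region. The highest open point is mdt-1.2 at 42.0, and the lowest filled one is taf-6.2 at 38.8.

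In TFIID, both genes of a histone-fold pair, taf-4 and taf-12, had IDR regions. TAF-4 and TAF-12 form a dimer in the body of TFIID, and in early C. elegans embryos TAF-4 is the factor that OMA-1 holds in the cytoplasm. The taf-4 region (chromosome I, 382335 to 382724) had its summit 296 bp upstream of the gene, with an IDR signal of 80.5 and rank 483. It had 31.2 in replicate 1 and 45.9 in replicate 2. The taf-4 window also held 4 pooled regions in introns, with signals from 14.6 to 20.7. The promoter of pqn-59, on the other strand with its start 628 bp away, covered the same summit.

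The taf-12 region (chromosome III, 11869970 to 11870359) lay 884 bp upstream, with an IDR signal of 64.0 and rank 944. It was even between the replicates, at 33.8 in replicate 1 and 38.5 in replicate 2, and no other protein-coding gene had it in its promoter or gene window. The next gene upstream was 1971 bp from taf-12. The 3 remaining taf genes were marked less strongly or away from the promoter. taf-8, whose product pairs with TAF-10, had a region 102 bp upstream (chromosome II, 9669021 to 9669410) with an IDR signal of 49.1 and rank 1674. Replicate 2 had 23.8 there. Replicate 1 had 2 summits on either side of it, one with a signal of 10.7 within 100 bp and one with 21.6 slightly further upstream, so the value for replicate 1 depended on which was taken.

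taf-6.2, one of the pair of TAF6 genes, had a region 148 bp upstream (chromosome IV, 3694686 to 3695075) with an IDR signal of 45.1 and rank 1950. Replicate 1 gave 11.3 and replicate 2 gave 23.1, and the start of Y37E11AL.3, on the other strand, was nearer at 54 bp. The other TAF6 gene, taf-6.1, had no IDR region, and its strongest pooled signal was 15.4. The partners of marked genes were not always marked: taf-10 had a strongest pooled signal of 13.4 and taf-9, for the TAF6 partner, 21.7.

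taf-3 lies at the edge of a dense stretch of regions on chromosome X, and its one IDR region was part of it. TAF3 in mammals binds trimethylated histone H3 lysine 4. The stretch, a series of 51 pooled regions with gaps of at most 2000 bp from 16343857 to 16379585, covered the last 2172 bp of the 13594 bp gene. The IDR region (16345334 to 16345723) had its summit in a coding exon 13094 bp from the 5′ end. It lay 1458 bp downstream of the nearest taf-3 transcript start, which is inside the gene. Its IDR signal was 53.2, rank 1454, with 23.9 in replicate 1 and 31.3 in replicate 2. Of 5 pooled regions in the taf-3 window, 4 lay in the stretch, with signals of 13.7, 32.4, 31.5 and 52.7. The fifth lay 249 bp upstream of the gene's 5′ end, with a pooled signal of 43.3 (rank 1975). It had 21.1 in replicate 1 (rank 1811) and 21.0 in replicate 2 (rank 2748) but no IDR summit. The next pooled summit was 11617 bp into the gene, in the promoter window of a transcript start there. With taf-3 counted as having no IDR region, 11 of 48 members had one, or 22.9%.

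**Figure D3:**
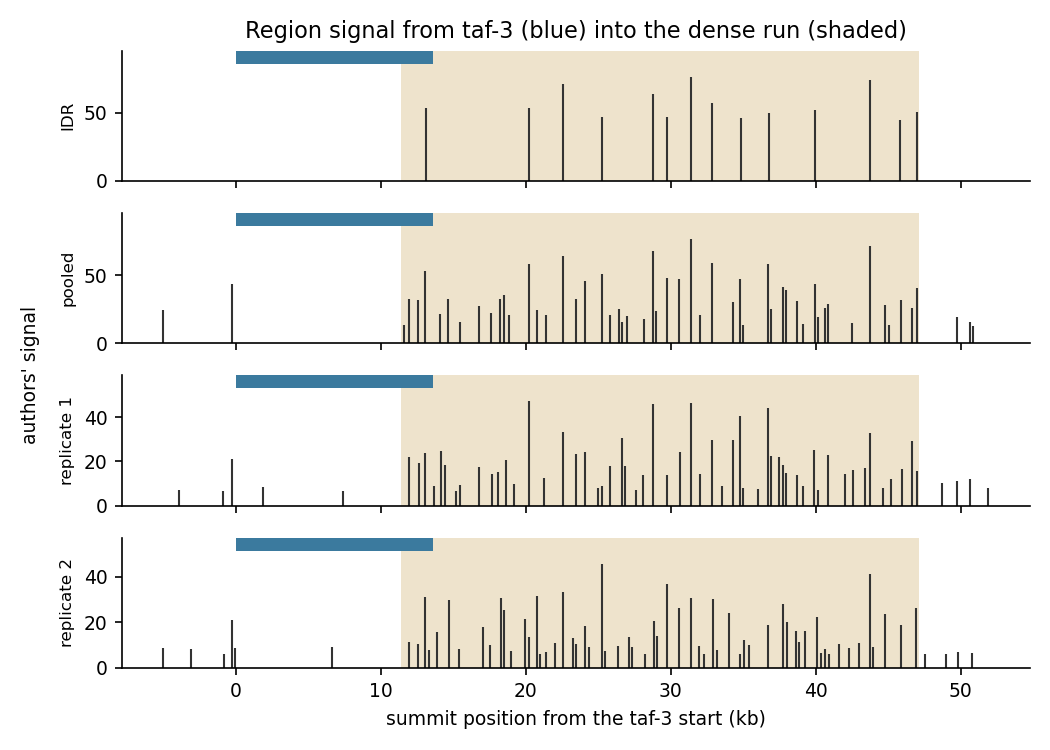
Signal of each region (vertical axes, the authors' signal, one panel per list) by its distance from the taf-3 start in kb; the blue bar is taf-3 and the shading the dense stretch. The single IDR region of taf-3 stands at the near end of 14 IDR regions in the stretch, and the pooled region at the taf-3 start stands apart from it.

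The remaining taf genes had no IDR region. taf-11.3 came nearest, with a pooled signal of 34.6 at 167 bp upstream, 17.9 in replicate 1 and 17.2 in replicate 2, in the promoter it shares with urm-1. taf-1, for the largest TAF and the longest window at 27173 bp, had 5 regions in replicate 1 and 11 in replicate 2, of which 2 were in the pooled list with signals of 22.03 and 18.2. The strongest pooled signals of taf-5, taf-7.2 and taf-2 were 23.3, 19.95 and 18.9. taf-11.1 had a region in each replicate list but none in the pooled one, taf-11.2 had one in replicate 2 alone, and taf-7.1 and taf-13 had none in any list. The long window of taf-1 thus held several weak regions and no IDR region.

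In Mediator, the strongest region of all 48 genes was at mdt-19. The MED19 subunit belongs to the middle module. The region (chromosome III, 2597071 to 2597460) had an IDR signal of 109 and rank 124, or 5.5% down the list, with 43.0 in replicate 1 (rank 267) and 58.1 in replicate 2 (rank 212). Its summit lay 787 bp upstream of mdt-19 but 232 bp upstream of apb-1, for a beta-adaptin of clathrin coats, on the other strand. The rank was high in both replicates, and the nearest start was that of apb-1.

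mdt-26, for a subunit that in human cells recruits elongation factors, was the one gene with 2 IDR regions. The first (chromosome II, 5660949 to 5661338) had its summit 37 bp upstream of the gene, an IDR signal of 66.3 and rank 845, with 29.2 in replicate 1 and 41.9 in replicate 2. The second (5661767 to 5662156) lay in an intron, 781 bp into the gene, with an IDR signal of 89.4 and rank 341. It was the one region of the 13 that was higher in replicate 1, at 48.4 (rank 158) against 40.2 in replicate 2 (rank 759). A further region, 2195 bp into the gene, was in the pooled list at 22.8 and in replicate 1 at 18.3. The upstream region lay also in the promoter window of ift-43, a gene of intraflagellar transport, with its start 358 bp away. No other protein-coding gene had the intron region in its window.

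The other marked Mediator genes were mdt-18, mdt-8, mdt-6 and mdt-22, whose yeast and human counterparts all belong to the head module. mdt-18 has several transcript starts, and its region (chromosome I, 6493785 to 6494174) lay 1273 bp into the gene, in the 5′ UTR of a longer transcript and 133 bp upstream of the start of a shorter one. The IDR signal was 60.5 (rank 1083), with 19.2 in replicate 1 and 41.7 in replicate 2. The start of uri-1, on the other strand, was 310 bp away. At mdt-8 the region (chromosome II, 11534555 to 11534944) lay 934 bp upstream with an IDR signal of 59.6 (rank 1113), and the replicates gave 32.1 and 32.8, the closest pair of the 13. It was nearest to Y62F5A.12, 271 bp from its start, the gene directly upstream of mdt-8 on the same strand.

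mdt-6 showed the widest gap between replicates. Its region (chromosome V, 7060349 to 7060738), 920 bp upstream, had an IDR signal of 56.2 and rank 1288. Replicate 1 held it at 8.62, rank 16979 of 30000, and replicate 2 at 35.5, rank 1059, a ratio of 4.12. Its summit was 8 bp from the start of Y57E12AL.1 and 74 bp from that of Y57E12AL.6, so that mdt-6 was the farthest of the 3 genes. mdt-22 had the weakest IDR region of the 13, at 42.3 and rank 2181 of 2253 (chromosome II, 10300950 to 10301339). Its summit was 71 bp upstream of the gene and 65 bp from a noncoding transcript start of clpp-1, the mitochondrial protease gene that overlaps it. Replicate 1 had 15.1 and replicate 2 had 32.02. Other head genes were not marked: mdt-17 and mdt-20 had strongest pooled signals of 14.2 and 15.9, and mdt-11 had a region in replicate 2 alone, with a signal of 10.3.

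**Figure D4:**
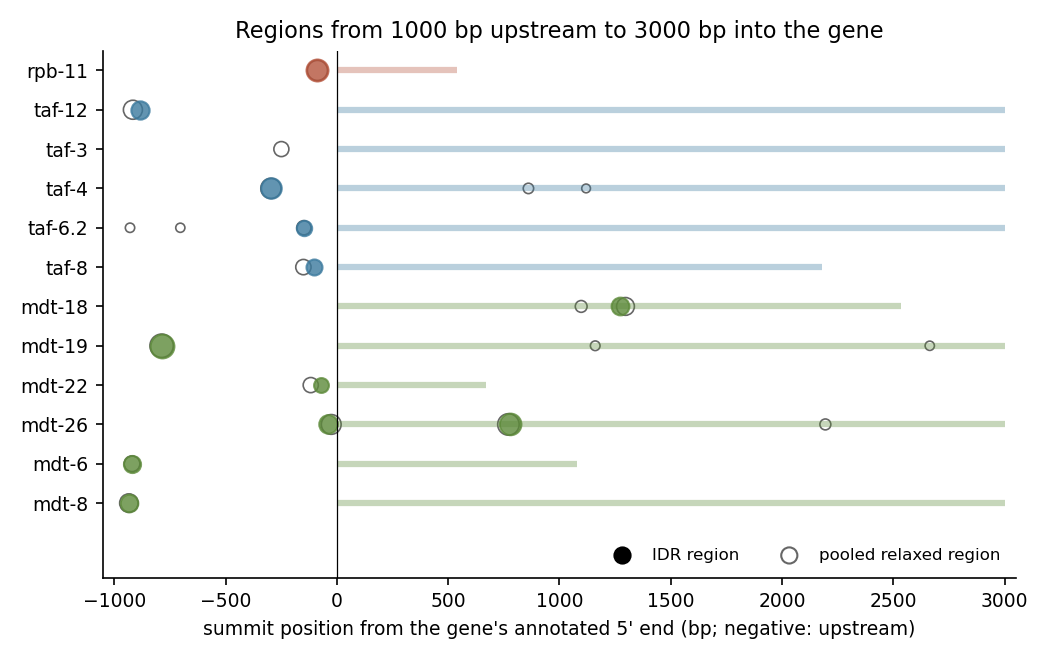
Summit positions of IDR regions (filled) and pooled relaxed regions (open) from the 5′ end of each of the 12 genes with an IDR region, in bp, from 1000 bp upstream to 3000 bp into the gene; the area of a point follows its signal, and bars show the gene. Of the 10 upstream IDR summits, 6 lay within 300 bp of the gene and 4 between 787 and 934 bp. Among the 4, those of mdt-19, mdt-6 and mdt-8 were nearest to another gene's start, as were mdt-22 and taf-6.2 among the 6. The taf-3 IDR region lies outside the plotted range.

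Among the Mediator genes with no IDR region, mdt-1.2 stood just outside the list. MED1 is the subunit that binds nuclear receptors in mammals. Its pooled region 166 bp upstream had a signal of 42.0 (rank 2087), and the replicates gave 19.6 and 19.5. That pooled signal was above the 38.8 of the taf-6.2 region, which was in the IDR list. mdt-9 followed, with a pooled signal of 35.4 at 105 bp upstream, 15.7 in replicate 1 and 24.2 in replicate 2, then mdt-27 with 34.5 in an intron and mdt-28 with 26.5 in a coding exon. mdt-15, a regulator of fatty acid metabolism in this animal, had 3 pooled regions, none above 15.8. The strongest pooled signals at mdt-21, mdt-10 and mdt-29 were 18.5, 14.2 and 12.8. mdt-4 had a region in replicate 1 alone and mdt-30 in replicate 2 alone, and mdt-31 had none in any list.

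Replicate 2 gave the higher signal at most of these regions. All 13 IDR regions had a summit within 100 bp in each replicate list, and at 12 of the 13 (92.3%) the signal was higher in replicate 2, against 1498 of the 2013 IDR regions found in both lists (74.4%). The median log2 ratio of replicate 2 to replicate 1 was 0.52 with an SD of 0.62 over the 13 regions, beside 0.40 with an SD of 0.72 over all IDR regions. The ratio was 2.04 to 4.12 at mdt-6, taf-8, mdt-18, mdt-22 and taf-6.2, and 0.83 to 1.47 at the other 8. Among the 2253 strongest regions of each replicate list, 9 of the 13 were found in replicate 1 and 11 in replicate 2. Over all 2253 IDR regions, 1603 were found in replicate 1 and 1770 in replicate 2. Of the 13, 9 were in both, where 56.6% of all IDR regions were in both. The 5 regions with a ratio of 2.04 or more had IDR signals of 60.5 or less. For taf-8 the ratio rests on the weaker of the summits in replicate 1. In the relaxed lists, 36 of 48 members (75.0%) had a region in replicate 1 and 42 (87.5%) in replicate 2, against 61.6% and 55.1% of all genes. Among the 48 members, 8 had regions in replicate 2 and none in replicate 1, and 2 had the reverse. Over all 19973 genes the order was the other way, with 12311 in replicate 1, 11002 in replicate 2 and 8376 in both.

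**Figure D5:**
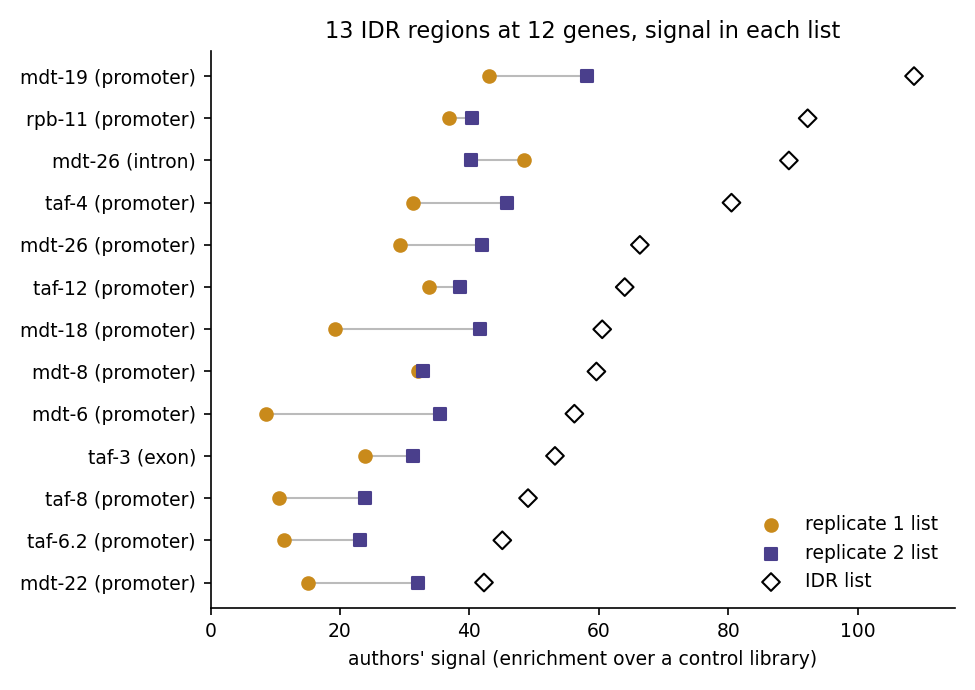
The authors' signal (horizontal axis) of each of the 13 IDR regions in the replicate 1 list (circles), the replicate 2 list (squares) and the IDR list (diamonds), ordered by IDR signal; lists differ in make, so only the replicates are set against each other. Circles lie left of squares at 12 of 13 regions, furthest at mdt-6 (8.62 and 35.5), and to the right at the mdt-26 intron.

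Of the 13 IDR regions, 10 were upstream of the gene, 1 in a 5′ UTR, 1 in an intron and 1 in a coding exon. Of the 72 pooled regions at the 48 genes, 27 (37.5%) were upstream, 25 (34.7%) in introns and 13 (18.1%) in coding exons. No such shares over all IDR or all pooled regions are given here, so these positions are not read as particular to these genes. Chromosome II carried 5 of the marked genes among its 11 members, where 8.15% of all its protein-coding genes had an IDR region. The other chromosomes had 2 of 10 on I (11.6% of all genes there), 2 of 12 on III (317 of 2640 genes), 1 of 5 on IV (8.05%), 1 of 6 on V (4.57%) and 1 of 4 on X (10.5%).

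For context, other genes of the transcription apparatus were counted by the same windows. Among 10 polymerase II and Mediator genes outside the symbol rule were ama-1 for the catalytic subunit RPB1 and the kinase gene cdk-8. The Mediator genes dpy-22, sur-2, let-19 and rgr-1 were also among them. Of the 10, 0 had an IDR region and all 10 had a pooled one, against 8.56% and 45.0% of all protein-coding genes. Windows differ in length, and these counts were not adjusted for it. The strongest pooled signals of the 10 ran from 14.9 at let-19 to 34.5 at dpy-22, with 28.4 at ama-1. Of 19 general transcription factor genes, 2 had an IDR region (10.5%) and 14 had a pooled one. The first was pqn-51, for a TFIIA subunit (chromosome V, summit 5049598, 9 bp upstream, IDR signal 102, 38.5 in replicate 1 and 60.5 in replicate 2). Its region lay also in the promoter window of K11D12.14. The second was cdk-7, for the TFIIH kinase (summit 2291247, 42 bp upstream, IDR signal 78.0, 34.2 and 42.7). The TBP gene tbp-1 and the TFIIB gene ttb-1 had pooled signals of at most 15.4 and 18.5. Of 6 elongation genes, 4 had a pooled region and 1, cdk-9 for the P-TEFb kinase, had an IDR region. The cdk-9 region lay in the promoter shared with hxk-2 (IDR signal 47.6, 21.7 in replicate 1 and 22.4 in replicate 2). Of 10 genes for polymerases I and III, 0 had an IDR region and 6 had a pooled one. Over the 4 lists, 3 of 45 genes had an IDR region (6.67%), beside the 12 of 48 members and 8.56% of all protein-coding genes. The lists were chosen with earlier results of these data known, and no test of the difference was made.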

How the data were processed

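ChIP-seq regions of 2 biological replicates were analysed, with a selected fragment size of 150 to 350 bp per the labels. The deposited lists give for each region a signal value in narrowPeak order, the authors' enrichment over a control library. Neither the labels nor the files used here name the aligner, the caller or the IDR threshold. The 4 ce11 lists were used and the 4 ce10 lists were not. No region passed a chromosome end of the WBcel235 genome, and 0 regions had the same summit and signal in both replicates.

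Gene positions came from Ensembl release 115. Summits were assigned to gene and promoter windows in Python 3.11.15 (pandas 2.3.3, numpy 2.4.6), and summits within 100 bp were taken as the same site. Shares carry 95% Wilson intervals (scipy 1.17.1), which cover counting error only. No test was made, since the libraries form 1 group and the members and lists were chosen with earlier results of these data known. The window and matching steps were tested on simulated positions. Genes named were all members, the genes sharing a marked promoter and the related genes with an IDR region, besides some chosen after their values were seen. Alternatives changed the window, the threshold, the assignment and the replicates used. The sequences of the other 7 IDR summit windows are not reported here.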

Additional observations from a re-analysis of the deposited data

How the results depend on the processing

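Of the 48 counts and medians recomputed under other settings, 34 stayed within 1.5 times the reported count or within the spread between replicates. Without replicate 1 or without replicate 2, taking the 2253 strongest regions of the other list, the members with a region in the gene window numbered 10 to 12 (8.12% to 8.47% of all genes), the taf genes 3 to 4 against 5, the mdt genes 5 to 8 against 6, and the members with a promoter region 10 (6.45% to 6.93% of all genes). Without replicate 1, taf-6.2 and taf-8 dropped out and mdt-9 and mdt-27 came in. Without replicate 2, mdt-22, mdt-6 and taf-6.2 dropped out and mdt-1.2 came in. With the stronger part of the IDR list by signal (1126 regions), 7 of 48 had a region in the gene window, against 4.53% of all genes, 2 of them taf genes, and 7 in the promoter window, against 3.64%. With the gene body alone, 3 members had a region (0 rpb, 1 taf, 2 mdt), against 2.86% of all genes. With 500 bp upstream in place of 1000 the mdt count was 3 and that of all members 8, against 7.34% of all genes, and with a promoter from 500 bp upstream to 100 bp downstream 7 members were counted, against 5.47%. With the nearest start only, 7 members had a region in the gene window, against 6.59% of all genes, and 6 in the promoter window, against 5.29%, 2 of them mdt genes in each case. Taking the strongest regions of each replicate in place of all relaxed ones, 8 members had both, in place of 34, against 5.76% of all genes. By construction, the stronger part of the list and the strongest regions of each replicate use fewer regions, the gene body and 500 bp settings shorter windows, and the nearest start fewer genes for each region. Where leaving out a replicate moved a count, the cause was not tested. The unknown depth limits any statement on weak or unlisted regions.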
